A study of Mus musculus with 7 samples.

Results

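The cadherin superfamily was followed in TRAMP-C1, a cell line from a prostate tumour of the TRAMP mouse, whose transgene drives prostate cancer. Members were taken by symbol: Cdh with a number, Pcdh, Dsc or Dsg with a number, Fat1 to Fat4, Dchs and Celsr, without pseudogenes. The rule found 110 genes among 46603 gene rows, and 59 of them had 10 or more reads in at least 3 of the 7 libraries. The 3 fusion libraries came from cells transduced with a lentivirus (Lv229 plasmid) carrying the PAX8-NFE2L2 fusion, and the 3 empty vector libraries from cells that received the matching virus without it. The last library is labelled WT and names no construct, and the protocol is the same text for all samples. All 7 libraries carry the strain label C57BL/6-TgN(TRAMP)8247Ng and the cell type label prostate epithelial. Virus stayed on for 12 h and the cells grew for 24 h more in fresh medium. The protein of NFE2L2 is NRF2, an activator of antioxidant genes, and PAX8 directs thyroid and kidney development. The design text sets fusion-expressing cells against empty vector cells. No source gives the promoter of the construct or the share of cells that took it up.

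Cadherins are membrane proteins that join neighbouring cells through repeated, calcium-binding extracellular domains. The classical cadherins bind the same cadherin on the next cell and hold the actin skeleton through catenins; in the prostate, E-cadherin (Cdh1) marks luminal epithelium, P-cadherin (Cdh3) basal epithelium and N-cadherin (Cdh2) mesenchymal cells. Protocadherins are best known from the nervous system, where they take part in cell recognition and sorting. The alpha, beta and gamma protocadherins lie in tandem arrays, and each of these genes has a first exon and promoter of its own. Fat and Dachsous cadherins are giant proteins that bind each other and act on planar polarity and the Hippo pathway.

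The 4 members whose level differed between fusion and empty vector cells in the comparison of all genes were Pcdh17, Pcdh9, Pcdh20 and Cdh10. Their promoter windows are shown because they differ widely in CG content. The windows come from RefSeq on GRCm38.p6 and hold the 250 bases before and the 50 bases after a transcription start, 300 bases each. CG dinucleotides, the sites of DNA methylation, are in capitals.
Pcdh17 window, chr14:84443313-84443612 (+ strand): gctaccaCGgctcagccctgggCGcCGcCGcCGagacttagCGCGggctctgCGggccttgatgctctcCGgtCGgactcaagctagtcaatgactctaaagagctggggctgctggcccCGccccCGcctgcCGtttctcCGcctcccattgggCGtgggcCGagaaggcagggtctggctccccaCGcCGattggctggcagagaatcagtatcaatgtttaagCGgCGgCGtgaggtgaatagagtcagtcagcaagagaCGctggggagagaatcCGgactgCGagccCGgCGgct
Pcdh9 window, chr14:93890630-93890929 (minus strand): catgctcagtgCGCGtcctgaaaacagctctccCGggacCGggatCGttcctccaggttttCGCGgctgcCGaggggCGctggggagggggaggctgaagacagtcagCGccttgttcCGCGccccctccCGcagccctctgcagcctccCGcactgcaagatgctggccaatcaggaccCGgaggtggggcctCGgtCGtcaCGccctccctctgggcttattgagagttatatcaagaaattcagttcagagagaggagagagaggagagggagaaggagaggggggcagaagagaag
Pcdh20 window, chr14:88471347-88471646 (minus strand): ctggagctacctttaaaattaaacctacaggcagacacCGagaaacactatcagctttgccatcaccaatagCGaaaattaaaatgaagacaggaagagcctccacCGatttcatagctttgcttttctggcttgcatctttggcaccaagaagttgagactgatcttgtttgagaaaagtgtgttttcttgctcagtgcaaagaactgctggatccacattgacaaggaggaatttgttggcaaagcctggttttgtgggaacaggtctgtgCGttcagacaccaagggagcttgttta
Cdh10 window, chr15:18820079-18820378 (+ strand): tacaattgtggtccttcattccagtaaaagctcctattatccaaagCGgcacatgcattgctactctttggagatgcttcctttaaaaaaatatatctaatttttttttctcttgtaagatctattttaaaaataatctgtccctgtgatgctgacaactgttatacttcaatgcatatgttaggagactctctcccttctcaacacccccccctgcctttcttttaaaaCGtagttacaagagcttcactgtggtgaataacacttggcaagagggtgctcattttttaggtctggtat
The Pcdh17 window held 26 CG and 65% G or C, and the Pcdh9 window held 18 CG and 62.7% G or C. The Pcdh20 window held 4 CG and 43.7% G or C, and the Cdh10 window held 2 CG and 37.7% G or C. Of 32851 RefSeq windows, whose median was 7 CG, 16.9% had as many CG as Pcdh17 or more, 29.7% as many as Pcdh9, 68.6% as many as Pcdh20 and 85.9% as many as Cdh10. The gene that rose and 1 of the 3 that fell thus had CG-rich windows, and the other 2 had CG-poor ones. The RefSeq start of Cdh10 lies 1382 bases inside the gene as GENCODE M21 draws it. The letters TGACNNNGC, the core of the antioxidant response element that NRF2 binds, were searched on both strands, as was CACCTG, the E-box of Snail and ZEB repressors. Neither stood in the 4 windows. TGACNNNGC stood in 2 of the 16 windows of the members above the read floor (12.5%), against 12.4% of all windows. CACCTG stood in 2 of the 16 (12.5%), against 20.2% of all windows. Fat1 held 1 of the 2 matches of each motif, and its RefSeq start lies 14761 bases inside the gene as GENCODE M21 draws it. The RefSeq starts of Fat2 and Cdh18 lie 24307 and 487441 bases from the start that GENCODE M21 gives the gene. RefSeq windows were matched for 29 members, 15 of them above the floor, of which Pcdh9 has 2 windows. Cdh1, Cdh2, Cdh3 and the beta and gamma protocadherins above the floor had no matched window, so neither motif was searched there.

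Depth, replicates and markers bear on all that follows. Reads assigned to genes came to between 26368182 and 59597170 per library, and members held 0.102 to 0.171% of them. The libraries numbered 3 stood apart: reads with several alignments were 44.78% in fusion 3 and 45.32% in empty vector 3, against 36.1 to 38.89% in the other 5, and each was sequenced in 1 lane, the others in 2. Fusion and empty vector libraries with the same number deviated together (r = 0.459 to 0.535 over genes). Members whose call changes in a fit with replicate number as a block are therefore named. No label says that replicates are separate cultures, so the p-values cover the spread among these libraries, which may be technical. The cell type label was set against markers. Of 12 epithelial genes 7 were abundant enough to test, and the 12 summed to 19.9 to 53.5 CPM (gene counts scaled by TMM to a common library size) in fusion libraries, 40.1 to 80.4 CPM in empty vector libraries and 19.1 CPM in WT. Krt19, a keratin, was the most abundant of them in every library, at 11.4, 11.1 and 41.5 CPM in fusion libraries, 61.7, 38.0 and 74.6 CPM in empty vector libraries and 17.3 CPM in WT (log2 fold change -1.45, edgeR adjusted p = 0.323 without and -1.68, 0.0437 with the block). Krt18 was the only epithelial gene called without the block, at 8.06, 5.47 and 4.23 CPM in fusion libraries against 0.418, 0.627 and 1.44 CPM in empty vector libraries (log2 fold change 2.85, edgeR adjusted p = 0.0304). With the block 2 of the list were higher, Krt18 and Cdh1, and 1 was lower, Krt19. Epcam stayed at or below 0.529 CPM in every library, and Esrp1 had reads in 1 library only. Hoxb13, Pbsn and Tmprss2, markers of prostate luminal cells, stood at or below 0.0748 CPM in every library. All 12 mesenchymal genes were tested, and they summed to 14000 to 20700 CPM in fusion libraries, 14400 to 23600 CPM in empty vector libraries and 24300 CPM in WT. None was called without the block. With it Cdh2 was higher and Col3a1 (log2 fold change -0.87, edgeR adjusted p = 0.0254), Snai2 and Zeb2 were lower. Of 7 neural and neuroendocrine genes 5 were tested, and they summed to 94.2 to 138 CPM in fusion libraries, 108 to 133 CPM in empty vector libraries and 120 CPM in WT. Insm1, a neuroendocrine transcription factor, was the only one called without the block (edgeR adjusted p = 0.0052), at 1.01, 0.751 and 0.973 CPM in fusion libraries with no read in the other 4. The 12 epithelial genes thus summed to far less than the 12 mesenchymal genes in every library. Cdh3, named above for basal epithelium, is on neither list and had 60.9 to 157 CPM. These lists do not settle the cell type label. Endothelial markers summed to at most 0.942 CPM in a library. The 4 immune genes summed to 2.02 to 3.35 CPM in fusion libraries, 1.52 to 2.67 CPM in empty vector libraries and 1 CPM in WT. Adgre1 and Cd3e of this list had no reads.

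Set per kilobase of exon not shared with another gene, 9 members lay above 5 CPM per kb in empty vector cells, 19 between 1 and 5, and 31 at 1 or below. Cdh3 led in fusion cells with 32.0 CPM per kb, against 20.4 in empty vector cells. Pcdhgc3 stood at 27.2 CPM per kb in fusion cells and at 25.3 in empty vector cells, the highest there, but this rests on leaving out the exons it shares with other genes. Over all of its exons it had 9.02 CPM per kb in fusion cells and 8.37 in empty vector cells, where it ranked 8 and Cdh3 led. Cdh11 stood at 17.1 CPM per kb in empty vector cells and led in WT with 36.5. The 10 highest in empty vector cells were thus a mixture: classical cadherins (Cdh2, Cdh3, Cdh11), delta protocadherins (Pcdh7, Pcdh9, Pcdh17, Pcdh18, Pcdh19), 1 giant cadherin (Fat1) and 1 clustered protocadherin (Pcdhgc3).

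**Figure D1:**
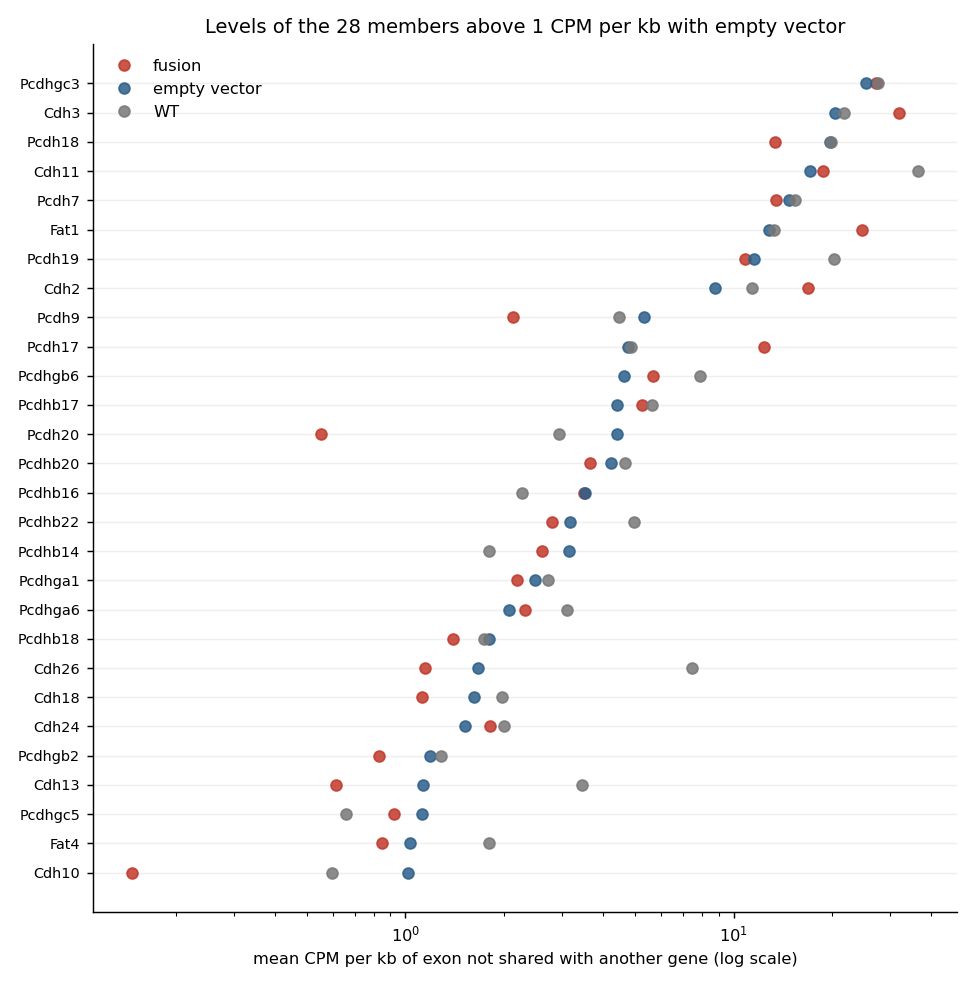
Mean level of the 28 members above 1 CPM per kb with empty vector (horizontal log axis, CPM per kb of exon not shared with another gene), in the fusion libraries (red, n = 3), the empty vector libraries (blue, n = 3) and the WT library (grey). Pcdh20 shows the widest gap between these groups, with 0.553 CPM per kb in fusion and 4.40 in empty vector cells.

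Between fusion and empty vector cells, Pcdh17 rose and Pcdh9, Pcdh20 and Cdh10 fell. That is 1 of 58 tested members higher, against 1.69% of all 16731 genes tested, and 3 lower, against 0.353% (edgeR's quasi-likelihood test with p adjusted by Benjamini-Hochberg over all genes and a threshold of 0.05). In either direction 2.04% of all genes passed. The median log2 fold change was 0.02 over the 58 members and 0.01 over all genes, with 30 members above 0 and 28 below. Pcdh1, the 59th above the floor, was too low to be tested. With the replicate block, 6 members were higher and 5 lower, against 7.63% and 5.5% of all genes, 13.1% together. DESeq2 called 2 higher and 3 lower, against 3.72% and 1.79% of all genes, 5.51% together. With the block, the 6 were Pcdh17, Cdh1, Cdh2, Cdh3, Fat1 and Pcdhga9, and the 5 were Pcdh9, Pcdh20, Cdh10, Cdh13 and Pcdh18. Fusion and empty vector libraries did not overlap for 5 members that were higher and 6 that were lower, against 9.15% and 6.66% of all genes, 15.8% together. In bulk RNA, fewer cells that express a gene and less RNA per cell cannot be told apart.

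**Figure D2:**
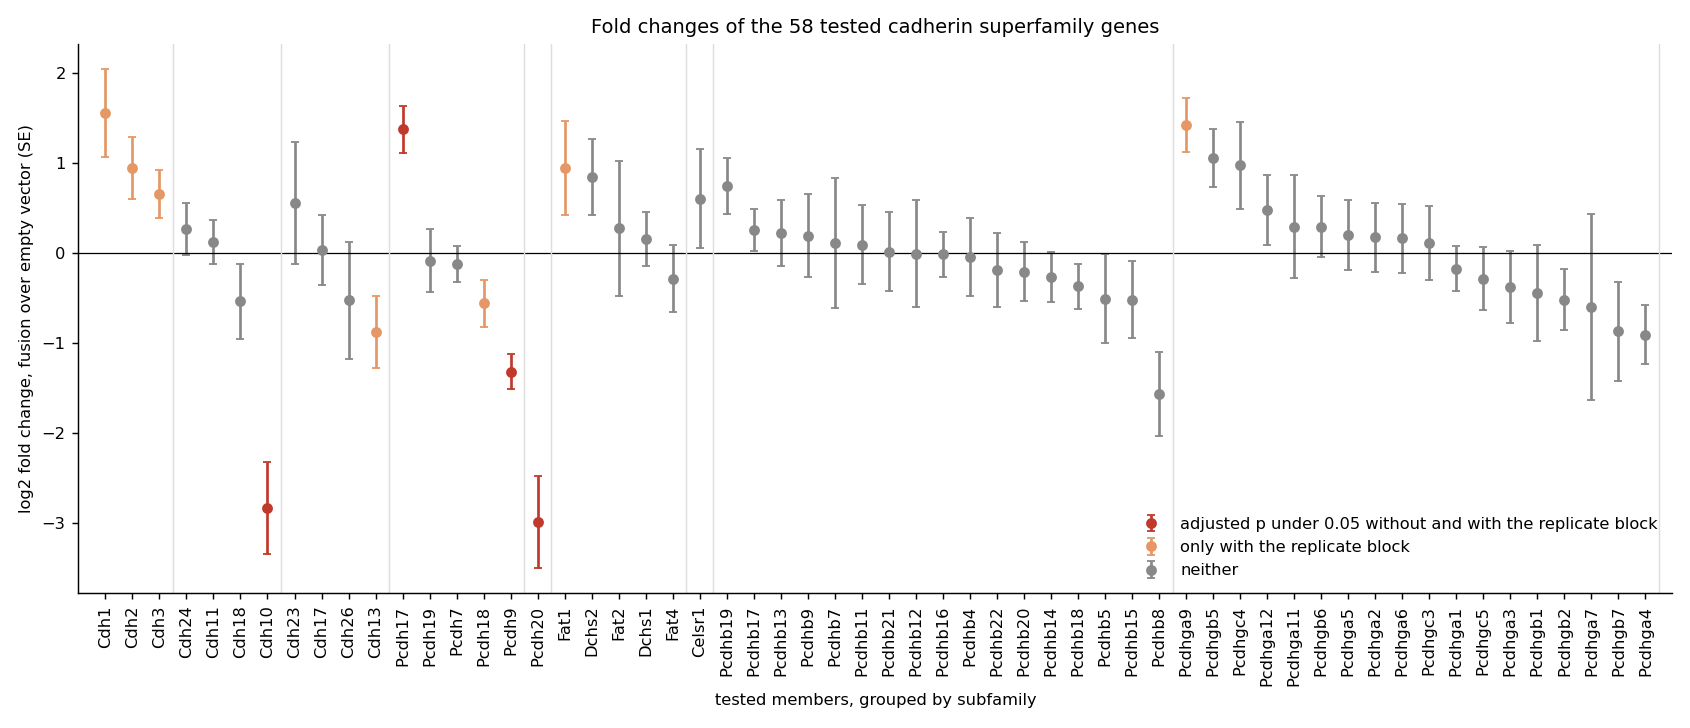
Fold change of each of the 58 tested members (vertical axis, log2 of fusion over empty vector, points with SE) by subfamily. Red points passed the test without and with the replicate block (4 members), orange points only with it (7 members), grey points neither, and most members lie within 1 log2 unit of 0.

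The delta protocadherins are protocadherins outside the clusters with conserved cytoplasmic motifs, active mainly in developing brain. Pcdh17, which acts in the growth of axons in bundles, had 185, 185 and 112 CPM in fusion libraries 1 to 3, 74.3, 62.0 and 50.1 CPM in the empty vector libraries and 63.0 CPM in WT. All fusion libraries lay above all the others, and fusion 3 was the lowest of its group. The mean was 161 ± 42.4 CPM in fusion and 62.1 ± 12.1 CPM in empty vector cells (SD, n = 3 each), 2.58 times as high in fusion cells, with a log2 fold change of 1.37 (SE 0.26, adjusted p = 0.0424 by edgeR). Leaving out 1 library ended this call in 5 of 6 cases (edgeR adjusted p 0.0546 to 0.172), and it held without fusion 3 (0.0167).

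Pcdh9, a delta protocadherin of neuronal circuits, had 13.4, 15.4 and 14.5 CPM in fusion libraries, 34.6, 38.9 and 35.1 CPM in empty vector libraries and 30.3 CPM in WT. The fusion libraries lay close together and all below the other 4. The mean was 14.4 ± 1.01 CPM in fusion and 36.2 ± 2.34 CPM in empty vector cells (SD, n = 3 each), with a log2 fold change of -1.32 (SE 0.19, edgeR adjusted p = 0.0107). It was the steadiest of the 4 calls and was lost in 2 of 6 fits with a library left out, without empty vector 2 (edgeR adjusted p = 0.0708) and without fusion 1 (0.0569).

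Other delta protocadherins were abundant and did not pass. Pcdh18 had 77.8, 84.4 and 52.9 CPM in fusion libraries, 109, 128 and 79.6 CPM in empty vector libraries and 106 CPM in WT. It is named after its values were seen: the groups overlapped, every fusion library lay below the empty vector library of its number, and the log2 fold change was -0.56 (SE 0.26, edgeR adjusted p = 0.508) without and -0.56 (SE 0.07, edgeR adjusted p = 0.00688) with the replicate block. Pcdh7, an adhesion protein first cloned from brain and heart, had 125, 95.8 and 118 CPM in fusion libraries, 133, 105 and 133 CPM in empty vector libraries and 129 CPM in WT. Its log2 fold change was -0.13 (95% interval -0.59 to 0.33), and 21.1% of its exon bases overlap an antisense gene. Pcdh19, on the X chromosome and mutated in a human epilepsy, had 144, 122 and 71.9 CPM in fusion libraries, 164, 124 and 72.0 CPM in empty vector libraries and 210 CPM in WT. Libraries numbered 3 were the lowest in both groups, the groups overlapped throughout, and the log2 fold change was -0.09 (95% interval -0.90 to 0.73). In all, 9 delta protocadherins are members, 6 passed the floor, 1 rose and 1 fell.

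Pcdh20, a protocadherin outside the clusters and the delta group, fell as well. It had 1.73, 4.47 and 2.92 CPM in fusion libraries, 10.6, 33.7 and 28.2 CPM in empty vector libraries and 16.2 CPM in WT. All fusion libraries lay below all others, and empty vector 1 stood well below the other 2 of its group. The mean was 3.04 ± 1.37 CPM in fusion and 24.1 ± 12.1 CPM in empty vector cells (SD, n = 3 each), 7.94 times as high in empty vector cells. The log2 fold change was -2.99 (SE 0.51, edgeR adjusted p = 0.0267). It was lost in 4 of 6 fits with 1 library left out (edgeR adjusted p 0.0525 without fusion 2, 0.0609 without fusion 3, 0.0783 without fusion 1 and 0.0846 without empty vector 2) and without both libraries numbered 3 (0.156). The 2 other members of this kind were below the floor. Pcdh17, Pcdh20 and Pcdh9 (ENSMUSG00000035566.6, ENSMUSG00000050505.7 and ENSMUSG00000055421.7) are all on chromosome 14 of GRCm38, at chr14:84443563-84539002 on the + strand, chr14:88464743-88471396 on the minus strand and chr14:93013410-93890679 on the minus strand.

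Among type II classical cadherins, which lack the histidine-alanine-valine motif of type I, Cdh10 fell. Cdh10, a cadherin mainly of brain, had 0.953, 0.714 and 2.77 CPM in fusion libraries, 11.8, 8.29 and 10.6 CPM in empty vector libraries and 5.99 CPM in WT. The groups were far apart and WT lay between them. The mean was 1.48 ± 1.12 CPM in fusion and 10.2 ± 1.81 CPM in empty vector cells (SD, n = 3 each), 6.93 times as high in empty vector cells, with a log2 fold change of -2.83 (SE 0.51, edgeR adjusted p = 0.0325). Of 6 fits with a library left out, 5 lost the call (edgeR adjusted p 0.0558 to 0.119), and the fit without fusion 3, the highest of its group, kept it (0.00311). Cdh10 (ENSMUSG00000022321.14) lies at chr15:18818947-19014236 on the + strand.

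Cdh11, the cadherin of osteoblasts and other mesenchymal cells, was the most abundant of this type, with 129, 154 and 216 CPM in fusion libraries, 155, 127 and 176 CPM in empty vector libraries and 325 CPM in WT. Fusion and empty vector libraries overlapped, and the log2 fold change was 0.12 (95% interval -0.44 to 0.69). Cdh18, another cadherin of the nervous system, had 2.90, 4.12 and 8.30 CPM in fusion libraries, 6.23, 6.14 and 9.79 CPM in empty vector libraries and 8.96 CPM in WT, a log2 fold change of -0.54 (edgeR adjusted p = 0.824). Of 13 type II members 4 passed the floor. The other 9, Cdh5 of endothelium among them, had at most 40 reads each over the 7 libraries.

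The 3 type I classical cadherins above the floor were all higher in the fusion library than in the empty vector library of the same number. Of all 59 members above the floor, 12 were higher in this way in every number and 13 in none. The share over all genes was not taken. None of the 3 passed without the replicate block. Cdh1, E-cadherin, had 1.79, 1.34 and 3.52 CPM in fusion libraries, 0.919, 0.394 and 0.938 CPM in empty vector libraries and 0.481 CPM in WT. All fusion libraries lay above all others, at a level far below that of Cdh2 and Cdh3. The log2 fold change was 1.55 (SE 0.49, edgeR adjusted p = 0.227) without and 1.53 (SE 0.29, edgeR adjusted p = 0.022) with the block. The summed epithelial list includes Cdh1. It lay at 19.9 to 53.5 CPM in fusion libraries and 40.1 to 80.4 CPM in empty vector libraries. Krt19, its most abundant gene in every library and lower with fusion in the fit with the block, weighs most in this sum. The 7 tested genes of the list had a median log2 fold change of 0.51. The part of this list in the Cdh1 result was not tested.

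Cdh2, N-cadherin, had 178, 131 and 100 CPM in fusion libraries, 102, 65.2 and 45.6 CPM in empty vector libraries and 91.7 CPM in WT. Fusion 3 and empty vector 1 met, so the groups overlapped, while number 1 was the highest and number 3 the lowest in both. The log2 fold change was 0.94 (SE 0.34, edgeR adjusted p = 0.299) without and 0.98 (SE 0.09, edgeR adjusted p = 0.00217) with the block. Cdh3, P-cadherin, had 157, 154 and 110 CPM in fusion libraries, 110, 96.9 and 60.9 CPM in empty vector libraries and 95.3 CPM in WT. Here too the groups met at 1 value and numbers 3 were the lowest of each group. The log2 fold change was 0.65 (SE 0.27, edgeR adjusted p = 0.413) without and 0.68 (SE 0.09, edgeR adjusted p = 0.00683) with the block. Summed over the type, the level was 279 ± 61.8 CPM in fusion and 161 ± 52.9 CPM in empty vector cells (SD, n = 3 each), and 187 CPM in WT. Cdh4 and Cdh15, the cadherins of retina and muscle, had at most 2 reads each. Cdh3 and Cdh1 are neighbours on chromosome 8, with 46.1 kb between them.

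**Figure D3:**
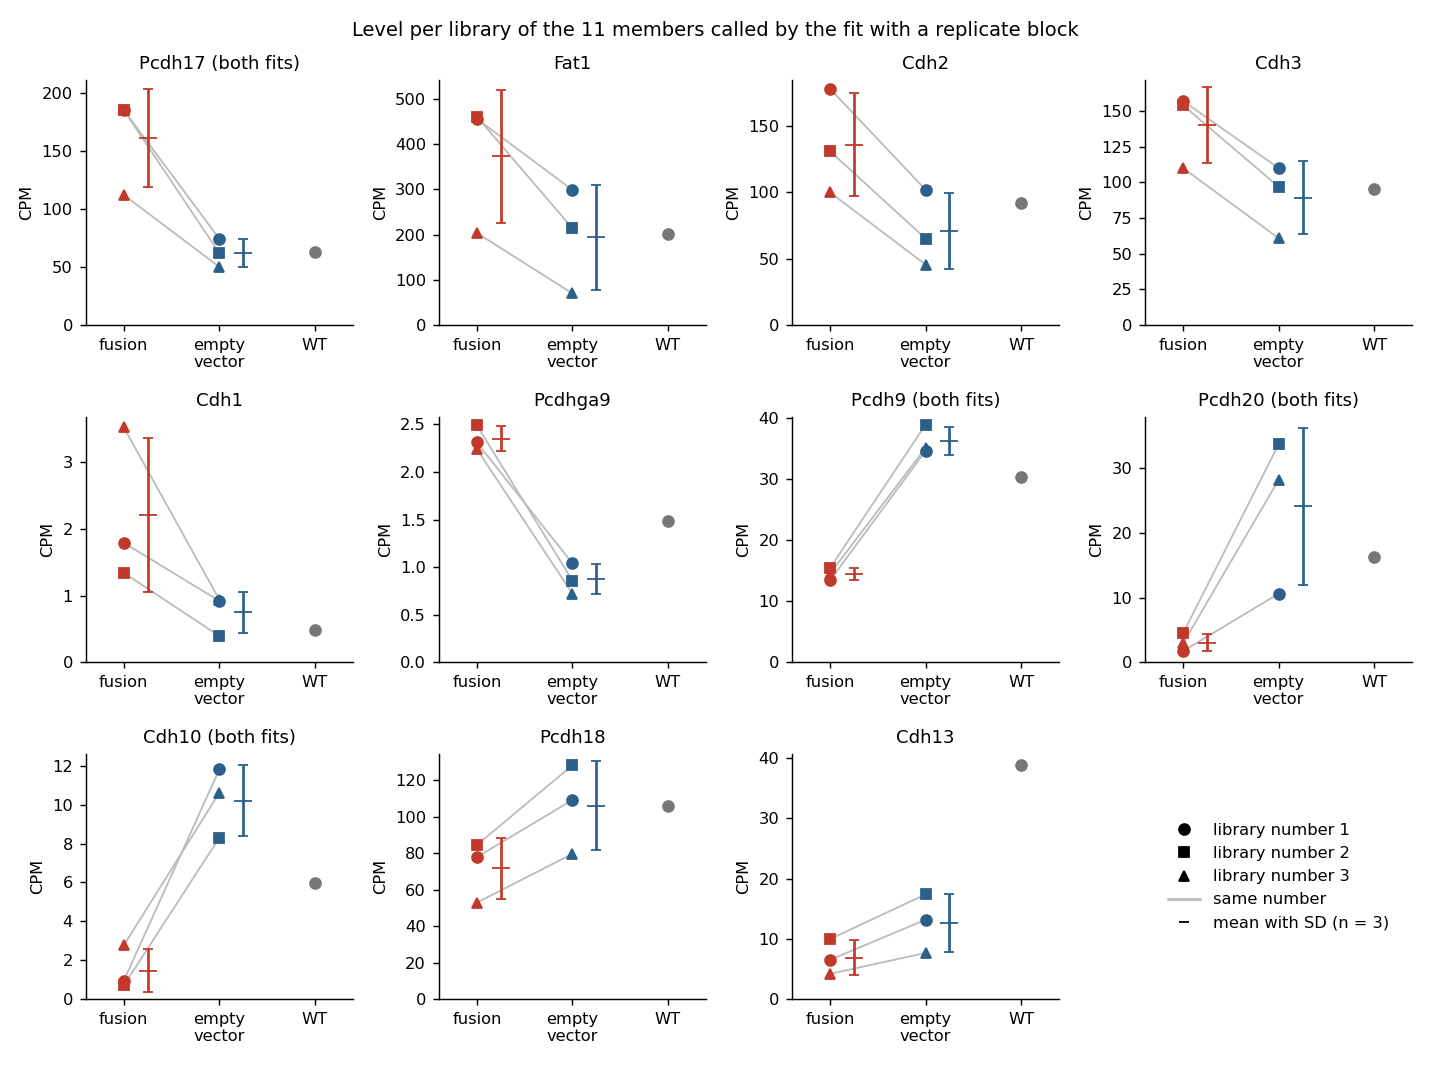
Level in each library (vertical axes, CPM) of the 11 members called with the replicate block: fusion, empty vector and WT from left to right, a symbol for each library number, grey lines joining libraries of the same number, and bars for the mean with SD (n = 3). Every line runs the same way within a gene, which the choice of members by that fit favours. Fusion and empty vector values overlap for Fat1, Cdh2, Cdh3, Pcdh18 and Cdh13.

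Cadherins of other structure were low in fusion and empty vector cells. Cdh13, T-cadherin, which is held in the membrane by a lipid anchor and has no cytoplasmic tail, had 6.55, 9.98 and 4.23 CPM in fusion libraries, 13.2, 17.4 and 7.70 CPM in empty vector libraries and 38.9 CPM in WT. Each fusion library lay below the empty vector library of its number, and the groups overlapped. The log2 fold change was -0.88 (SE 0.40, edgeR adjusted p = 0.493) without and -0.89 (SE 0.13, edgeR adjusted p = 0.00894) with the block. Cdh26, a cadherin of epithelia, had 5.18, 1.14 and 4.11 CPM in fusion libraries, 9.34, 2.60 and 3.03 CPM in empty vector libraries and 22.4 CPM in WT. Its log2 fold change, -0.53, had a 95% interval of -2.02 to 0.96. The 5 cadherins of this group include 4 above the floor, none of which passed without the block.

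Fat1, a giant cadherin that also restrains Hippo-dependent growth, had 456, 461 and 204 CPM in fusion libraries, 299, 214 and 70.0 CPM in empty vector libraries and 202 CPM in WT. Numbers 3 were by far the lowest of each group, which left the groups overlapping although every fusion library exceeded its partner. The log2 fold change was 0.94 (SE 0.52, edgeR adjusted p = 0.629) without and 1.08 (SE 0.18, edgeR adjusted p = 0.0231) with the block. Fat4, the receptor of Dachsous, had 10.3, 18.8 and 10.7 CPM in fusion libraries, 21.9, 17.2 and 9.48 CPM in empty vector libraries and 28.2 CPM in WT, with a log2 fold change of -0.29 (95% interval -1.13 to 0.56). The groups overlapped fully. Of 6 Fat and Dachsous members 5 passed the floor, and none was called without the block. Celsr1, a planar polarity cadherin with a receptor-like membrane domain, was near the floor at 0.248, 0.128 and 0.374 CPM in fusion libraries and 0.217, 0.107 and 0.144 CPM in empty vector libraries (log2 fold change 0.60, edgeR adjusted p = 0.884). It had no read in WT, which allows up to 0.0601 CPM there (3 reads).

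Desmosomal cadherins, the desmocollins and desmogleins of epithelial junctions, were all below the floor: 5 of 9 had no read. Their summed level was 0.0183 to 0.224 CPM in fusion libraries and 0.0537 to 0.313 CPM in empty vector libraries, with no read in WT. The 14 alpha protocadherins were as silent, 8 without a read and a sum of at most 0.220 CPM in any library. Over the whole superfamily 20 members had no read. Just inside the floor, with 10 reads in exactly 3 libraries, were Celsr1, Pcdhga11, Pcdhga7 and Pcdh1, with 55, 60, 59 and 61 reads over 7 libraries, and just outside were Pcdhb10, Pcdhb2 and Pcdhga8 with 54, 54 and 45 reads.

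The beta and gamma clusters, which lie next to the alpha cluster on chromosome 18, were active, with 17 of 22 and 18 of 21 genes above the floor, and no gene of either passed the test without the block. Beta genes summed to 88.8, 118 and 172 CPM in fusion libraries, 139, 132 and 123 CPM in empty vector libraries and 131 CPM in WT. The fusion libraries spread to both sides of the narrow empty vector range, with means of 126 ± 42.4 CPM in fusion and 131 ± 8.09 CPM in empty vector cells (SD, n = 3 each). Use of the cluster was uneven: Pcdhb14, Pcdhb16, Pcdhb17, Pcdhb20 and Pcdhb22 held 74.2 to 79.3% of the beta reads in each of the 7 libraries. All 5 lie in the distal part of the cluster, from Pcdhb14 on. Pcdhb16, Pcdhb20 and Pcdhb22 are named for this share, after their values were seen.

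Pcdhb14 had 16.0, 19.8 and 32.3 CPM in fusion libraries, 26.6, 30.1 and 25.4 CPM in empty vector libraries and 15.7 CPM in WT, with a log2 fold change of -0.27 (95% interval -0.91 to 0.37). Pcdhb17 had 18.6, 27.8 and 27.0 CPM in fusion libraries, 22.6, 20.9 and 18 CPM in empty vector libraries and 26.2 CPM in WT, with a log2 fold change of 0.25 (95% interval -0.27 to 0.78). The groups overlapped for both. Pcdhb19 had 6.73, 9.17 and 13.5 CPM in fusion libraries, just above the 6.68, 4.92 and 6.02 CPM of the empty vector libraries, and 7.90 CPM in WT (log2 fold change 0.74, edgeR adjusted p = 0.429). Pcdhb8 had 0.171, 0.165 and 0.449 CPM in fusion libraries, 0.735, 0.770 and 0.698 CPM in empty vector libraries and 0.441 CPM in WT (log2 fold change -1.57, edgeR adjusted p = 0.191). These last 2 did not overlap between the groups and did not pass. The median log2 fold change of the 17 beta genes was -0.02, with 7 above 0 and 10 below.

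Gamma genes summed to 104, 113 and 73.7 CPM in fusion libraries, 114, 108 and 49.5 CPM in empty vector libraries and 111 CPM in WT. Numbers 3 were low in both groups. Pcdhgc3, a C-type gene of the gamma cluster used outside the nervous system as well, alone held 40.7 to 55.0% of the gamma reads of a library, and the 5 leading genes held 76.9 to 86.3%. It had 57.3, 57.3 and 34.2 CPM in fusion libraries, 58.9, 59.1 and 20.1 CPM in empty vector libraries and 50.2 CPM in WT. The groups overlapped, and the log2 fold change was 0.11 (95% interval -0.83 to 1.05). Pcdhgb6, the next in level, had 15.5, 16.4 and 11.8 CPM in fusion libraries, 16.1, 13.2 and 6.42 CPM in empty vector libraries and 20.3 CPM in WT, with a log2 fold change of 0.29 (95% interval -0.50 to 1.08). The median log2 fold change of the 18 gamma genes was 0.14, with 10 above 0 and 8 below.

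Pcdhga9 came closest to passing among the clustered genes. It had 2.31, 2.49 and 2.24 CPM in fusion libraries, 1.04, 0.859 and 0.722 CPM in empty vector libraries and 1.48 CPM in WT. The fusion libraries lay close together and above all others. The mean was 2.35 ± 0.128 CPM in fusion and 0.872 ± 0.157 CPM in empty vector cells (SD, n = 3 each), and the log2 fold change was 1.42 (SE 0.30, edgeR adjusted p = 0.0556; 0.0144 with the replicate block, and 0.000683 by DESeq2). Pcdhgb5, the gene just before it in the cluster, had 1.66, 1.23 and 1.16 CPM in fusion libraries, 0.618, 0.662 and 0.674 CPM in empty vector libraries and 5.93 CPM in WT. The groups did not overlap, WT was the highest by far, and the log2 fold change of fusion over empty vector was 1.05 (edgeR adjusted p = 0.192). Pcdhga4 had 0.495, 0.403 and 0.486 CPM in fusion libraries, 0.919, 0.752 and 0.938 CPM in empty vector libraries and 0.621 CPM in WT (log2 fold change -0.91, edgeR adjusted p = 0.312). Gamma genes above the floor share 31.5 to 73.6% of their exon bases with other genes, mostly the constant exons, so their counts rest on the rest of each gene and reads of the shared exons could be left out or split.

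**Figure D4:**
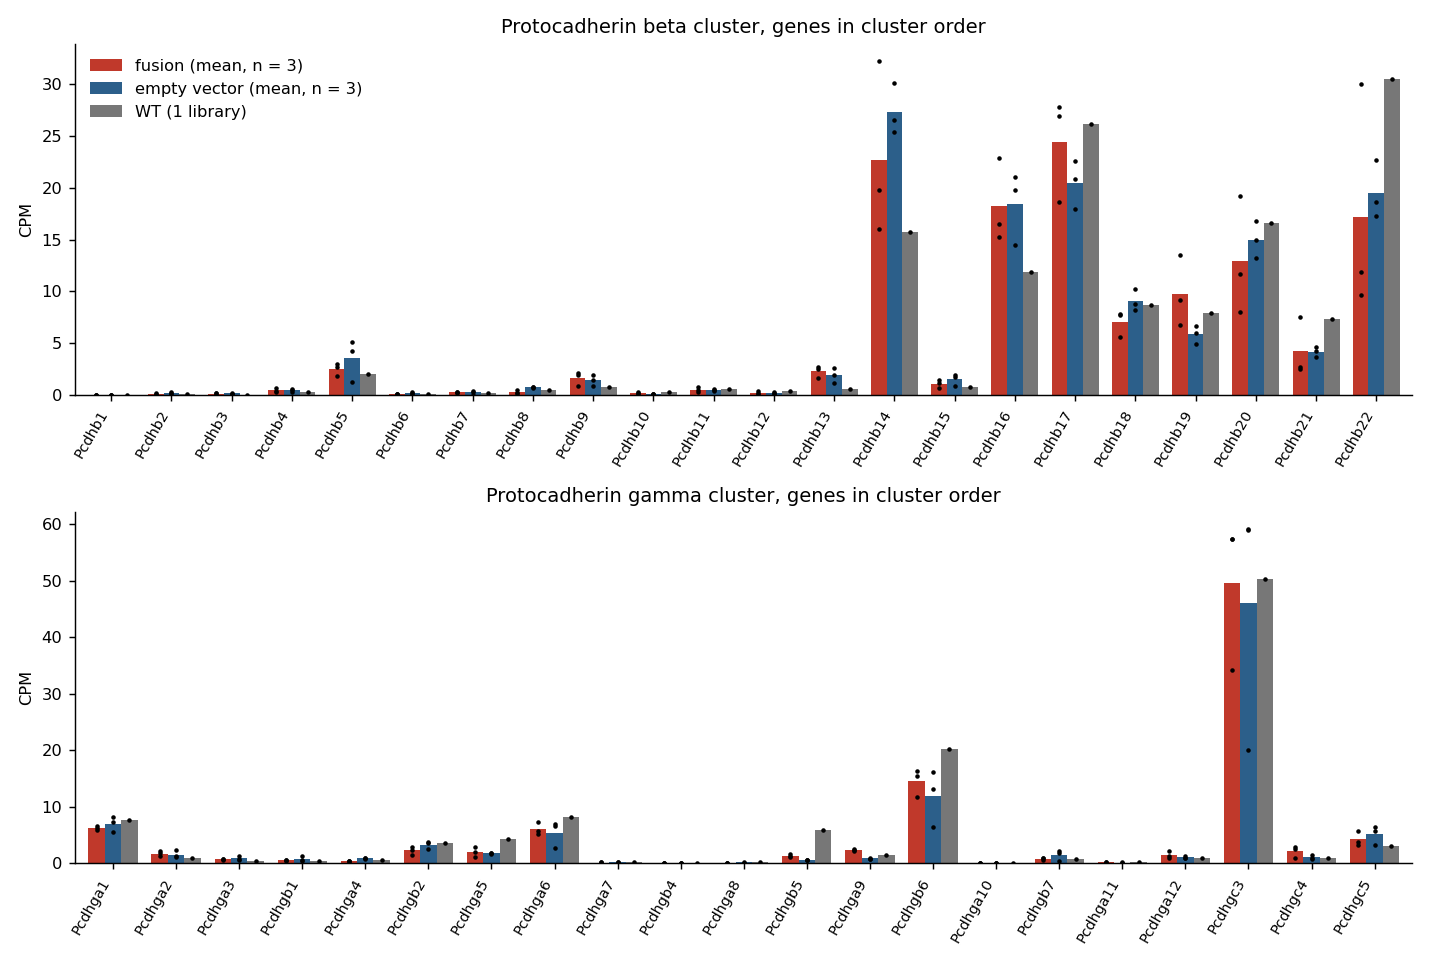
Level (vertical axes, CPM) of every beta (upper) and gamma (lower) protocadherin in cluster order, with bars for the fusion mean (red, n = 3), the empty vector mean (blue, n = 3) and the WT library (grey), and a dot for each library. Levels are concentrated in the distal beta genes and in Pcdhgc3, and Pcdhgb5 stands out in WT with 5.93 CPM.

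Against WT the comparisons rest on 1 library, assumed to vary like the others, and share the empty vector or fusion libraries with the comparison above. In fits with the replicate block, WT, labelled rep1, was grouped with the libraries numbered 1. Shared deviations were seen between fusion and empty vector libraries only, and whether WT shares those of number 1 was not tested. Between empty vector and WT no gene of 16731 passed (edgeR; 0% called, 746 at an unadjusted p under 0.05; 77 genes by DESeq2), and no member did (8 of 58 at an unadjusted p under 0.05). WT lay above all empty vector libraries for 18 members, below all for 17 and within their range for 24. Of all genes tested, WT lay above for 22.7% and below for 21.6%, 44.3% together. DESeq2 called Pcdhgb5 lower in empty vector cells (log2 fold change -3.17, adjusted p = 3.1e-08), the only member it called, against 0.263% of all genes higher and 0.197% lower, 0.46% together. For this gene edgeR gave -3.18 (SE 0.37, adjusted p = 0.0765). With the replicate block edgeR called Cdh13 lower in empty vector cells (-1.62, adjusted p = 0.0471) and no other member, against 0.0359% of all genes higher and 0.0837% lower, 0.12% together. Cdh11 gave -1.09 (SE 0.33, edgeR adjusted p = 0.899), and Pcdh19 gave -0.81 (SE 0.48, edgeR adjusted p = 1.000). All 4 members above the floor among the other cadherins, Cdh13 and Cdh26 included, were higher in WT than in any empty vector library. For Cdh23, named after its values were seen, the margin was slight, at 0.301 CPM in WT against 0.289 CPM in empty vector 3.

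Between fusion and WT, 0.341% of all genes were higher and 0.0956% lower, 0.436% together, and no member passed (edgeR; 12 of 58 members and 1284 of 16731 genes at an unadjusted p under 0.05). DESeq2 called 2 members higher and 5 lower in fusion cells, against 2.19% and 0.789% of all genes, 2.98% together. With the replicate block edgeR called 4 higher and 6 lower, against 4.57% and 5.25%, 9.81% together. The 4 were Pcdh17, Cdh1, Cdh2 and Cdh3. The 6 were Pcdh9, Pcdh20, Cdh11, Cdh13, Cdh18 and Pcdhgb5. Pcdh17 had a log2 fold change of 1.35 over WT (SE 0.40, edgeR adjusted p = 0.305; 0.00722 with the block). Pcdh9 gave -1.07 (SE 0.24, 0.139; 0.0103 with the block) and Pcdh20 -2.41 (SE 0.62, 0.199; 0.00257 with the block), both edgeR adjusted p. Cdh10 gave -2.06 (SE 0.63, edgeR adjusted p = 0.322; 0.0697 with the block).

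The partners of cadherins were taken from lists, whose counts stand against 1.69% of all genes higher and 0.353% lower without the block, and 7.63% and 5.5% with it. Of 15 catenins and plaque proteins 13 were tested, and 1 rose: Pkp2, a plaque protein of desmosomes, with 54.0, 72.2 and 64.2 CPM in fusion libraries, 9.99, 12.5 and 25.3 CPM in empty vector libraries and 22.4 CPM in WT (log2 fold change 2.0, SE 0.36, edgeR adjusted p = 0.0309). The fusion libraries lay above all others. With the block 4 rose, among them beta-catenin, Ctnnb1, with 906 ± 30.3 CPM in fusion and 634 ± 14.8 CPM in empty vector cells (SD, n = 3 each; log2 fold change 0.51, edgeR adjusted p = 0.288 without and 0.00917 with the block). Alpha-catenin, Ctnna1, had 601 ± 116 CPM in fusion and 591 ± 185 CPM in empty vector cells (SD, n = 3 each).

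Of 9 transcription factors that repress Cdh1, 8 were tested and none passed. With the block 2 fell, Snai2 (log2 fold change -0.66, edgeR adjusted p = 0.0111) and Zeb2 (-0.44, 0.0356), named after their values were seen; their part in the level of Cdh1 was not tested. Tcf3 and Tcf4, the most abundant of the list, gave -0.12 and -0.22 without the block. Of 11 genes listed for the cleavage of cadherins, proteases and subunits of gamma-secretase, 10 were tested, and 1 rose: Mmp9, a gelatinase. It had 3.22, 8.37 and 5.09 CPM in fusion libraries, 0.334, 1.20 and 0.818 CPM in empty vector libraries and 0.421 CPM in WT (log2 fold change 2.83, SE 0.54, edgeR adjusted p = 0.0422). Adam10, the main sheddase of E- and N-cadherin, had 211 ± 28.9 CPM in fusion and 194 ± 34.3 CPM in empty vector cells (SD, n = 3 each), and Mmp3 had 141 ± 138 CPM in fusion and 227 ± 298 CPM in empty vector cells (SD, n = 3 each), with numbers 3 far above the rest.

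All 22 Hippo and planar polarity partners were tested, and Yap1, the coactivator that the Hippo pathway restrains, fell. It had 504, 550 and 368 CPM in fusion libraries, 1520, 1480 and 1950 CPM in empty vector libraries and 1180 CPM in WT (log2 fold change -1.80, SE 0.24, edgeR adjusted p = 0.00956). Its paralog Wwtr1 had 210 ± 21.1 CPM in fusion and 206 ± 15.4 CPM in empty vector cells (SD, n = 3 each). With the block 3 of the list fell. All 13 regulators of clustered protocadherin promoters, cohesin subunits and DNA methyltransferases among them, were tested, and none passed with or without the block. Rad21 and Smc3, the most abundant, had log2 fold changes of -0.06 and 0.25.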

How the data were processed

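Polyadenylated RNA was read as 50 bp single ends. The deposited values are raw counts of reads per gene and lane, and the authors used STAR, HTSeq and GRCm38, per the submitters' processing notes; neither versions nor strandedness are stated there. Thus 13 members above the floor that overlap an antisense gene (Pcdh7, Pcdh19, Fat1, Fat4 and Pcdhgc3 among them) cannot be told apart from it there, and multiply aligned reads (36.1 to 45.32% of a library), spike-in rows and rows without a gene stayed out.

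Lanes of a library were summed, since they agreed within sampling noise (chi-square divided by degrees of freedom 0.9785 to 1.01). Symbols, positions and exon overlaps come from GENCODE M21, which placed 46091 of 46603 rows. Counts were tested with edgeR 4.0.16 in R 4.3.3 (TMM, filterByExpr with a minimum of 10 counts, robust quasi-likelihood test, Benjamini-Hochberg at 0.05 over 16731 genes), and DESeq2 1.42.0 was an alternative. Fusion against empty vector used 6 libraries, comparisons with WT all 7. Log2 fold changes are edgeR's unless DESeq2 is named. SE was derived as the absolute log2 fold change divided by the square root of edgeR's F statistic. The 95% intervals were built from that SE and the t distribution. Limits for 0 reads cover counting error only.

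Groups share replicate numbers. Deviations from group means correlated within a number (r = 0.535, 0.488 and 0.459 over 16731 genes). Between numbers r was -0.0497 to -0.427. Centring on group means by itself pushes these values down when those within a number are positive, so they add no separate evidence. The main test of fusion against empty vector nevertheless used group alone. The replicate number entered only the fits named as having the block. WT entered the block as number 1 without such a check. No label names a shared batch. The edgeR fit of fusion against empty vector without the block was tested on simulated counts that held no effect of replicate number. The fits with the block, DESeq2 and the comparisons with WT were not tested in this way.

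Members and lists were chosen with earlier results of these data known. Named members are those called, the 2 with the highest CPM of a subfamily, the 10 largest changes without overlap between groups, and Cdh1, Cdh2 and Cdh3; from partner lists, genes called and the 2 with the highest CPM. Some genes of the marker lists are not reported here.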

Additional observations from a re-analysis of the deposited data

How the results depend on the processing

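Counts of calls depended on the fit more than directions did. For fusion minus empty vector, 341 genes were called, 922 by DESeq2, 530 without the low-count filter, 2196 with the replicate block, 3276 with the block and both libraries numbered 3 left out (chosen after the data were seen), and 139 to 373 with 1 library left out, fewest without empty vector 2 (139), fusion 2 (154) and fusion 1 (204). Members called higher numbered 1, against 2 by DESeq2, 6 with the block, 8 with the block without numbers 3, and 0 to 1 with 1 library left out. Members called lower numbered 3, against 5 with the block, 13 with the block without numbers 3, and 0 to 2 with 1 library left out. With the block and without numbers 3, 1873 of all 16731 genes were called higher and 1403 lower, on 1 residual degree of freedom. No member was called without fusion 1 or without empty vector 2. The 4 calls remained with DESeq2, its size factors, the floor for every gene, no filter, all 7 libraries and the block; no called value changed sign. Of 750 values of named genes under other settings 26 changed sign, none of them called, such as Pcdhgc3 (-0.25 without empty vector 3), Pcdh19 (0.20 without empty vector 1) and Cdh26 (0.31 without empty vector 1), and for empty vector minus WT Pcdh20 (-0.47 with the block). For empty vector minus WT, 0 genes became 77 by DESeq2, 15 without the filter and 20 with the block, and 0 members lower became 1 in each. For fusion minus WT, 73 genes became 498 by DESeq2, 245 without the filter, 1642 with the block and 1 to 84 with 1 fusion library left out (1 without fusion 2, 16 without fusion 1). Members higher went to 2 by DESeq2 and 4 with the block, members lower to 5 by DESeq2, 2 without the filter, 6 with the block and 0 to 1 with 1 fusion library left out. Among named genes, 693 of their values under another setting stayed on their side of the threshold, 40 passed it newly and 17 lost it. The causes were not tested. With 1 WT library and 3 libraries a group, precision is limited; members near the read floor carry wide intervals.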

Other observations

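Pcdh17, Pcdh20 and Pcdh9, 3 of the 4 members called between fusion and empty vector cells, lie in 1 stretch of chromosome 14, chr14:84443563-93890679 on GRCm38, 9.45 Mb long. This was seen after the calls were known and has no test. The stretch holds 22 gene rows, 7 of them tested. The other 4 tested were not called and had small log2 fold changes: -0.18 for Tdrd3, a tudor domain protein (edgeR adjusted p = 0.907), -0.01 for Diaph3, a formin (0.999), 0.08 for the pseudogene Gm10110 (0.991) and 0.34 for the pseudogene Gm9274 (0.949). Within the stretch Pcdh17 was higher and Pcdh20 and Pcdh9 were lower in fusion cells.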
